A study of Mus musculus with 8 samples.

Results

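The 10 genes described here encode the enzymes that build the amino acid serine from glucose (Phgdh, Psat1 and Psph) and those that pass serine's one-carbon unit along folate carriers. The folate enzymes were divided by the compartment in which their proteins work, into 5 mitochondrial genes (Shmt2, Mthfd2, Mthfd1l, Mthfd2l and Aldh1l2) and 2 cytosolic genes (Shmt1 and Mthfd1). They were taken by symbol as 10 of the 43430 gene IDs in the count table, and each symbol matched 1 row. The list was drawn up with earlier results of these data known. Shares of all genes tested are therefore set beside its counts as description, not as a test. They lie apart, on chromosomes 3 (Phgdh), 5 (Psph and Mthfd2l), 6 (Mthfd2), 10 (Shmt2, Mthfd1l and Aldh1l2), 11 (Shmt1), 12 (Mthfd1) and 19 (Psat1). All 10 were among the 12689 genes that passed the filter on low counts.

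RNA was sequenced from CD31-positive cells, sorted by flow cytometry from the lungs of C57BL/6 mice at postnatal day 15. CD31 is a surface protein of the endothelium, the cell layer that lines blood vessels. The KO group had lost QPC, a subunit of respiratory complex III that is read here as the product of Uqcrq, from its endothelial cells, and the WT group is labelled wild type, with 4 libraries in each. The deletion was switched on with tamoxifen from postnatal day 0 to day 4 by the sample protocol, or on day 0 by the series' description. The Cre line or promoter behind the deletion, and whether WT mice also received the drug, were not given in the sources used here. As the labels do not tie each library to its own animal, p-values cover only the spread among these samples, and that spread may be technical.

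In the background, PHGDH oxidises the glycolytic intermediate phosphoglycerate, PSAT1 transfers an amino group onto the product from glutamate, and PSPH removes the phosphate to leave serine. Serine hydroxymethyltransferases then split serine into glycine and a one-carbon unit on tetrahydrofolate. Mitochondrial enzymes oxidise that unit to formate, which leaves for the cytosol, where it is used to make purines, thymidylate and methionine. Induction of the serine and mitochondrial folate enzymes is a known part of the mitochondrial stress response of mammalian cells.

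Libraries held between 6407924 counts (WT replicate 3) and 13981329 counts (KO replicate 4), and a floor of 3 counts in a library corresponded to 0.217 to 0.448 CPM, the TMM-normalised counts scaled to a common library size. Uqcrq stood at 26.3, 24.5, 26.8 and 31.5 CPM in the WT libraries, in replicate order, and at 1.59, 15.6, 9.57 and 14.0 CPM in the KO libraries. No KO library reached the WT range, and the KO mean was 37.3% of the WT mean (exact two-sided permutation p = 0.02857, the smallest that 4 against 4 allows, and adjusted p = 0.179 in the edgeR fit over all genes). WT replicate 3 and KO replicate 1 stood apart from their groups. They held 268 and 250 genes at 1 count or fewer where the other 3 libraries of the group each had at least 50, against 1 to 63 such genes in the other libraries. All 6 endothelial markers were measured, with a summed level of 11237 to 13358 CPM in WT and 9241 to 12665 CPM in KO. By edgeR, 2 of them, Tek and Erg, were called lower in KO, also 2 with its newer dispersion option. DESeq2 and limma voom each called 3 lower, and 3 were lower at an unadjusted edgeR p under 0.05. Of all 12689 genes tested, edgeR called 176 lower, its newer option 297, DESeq2 371 and limma voom 223. At least 1801 passed the unadjusted threshold, both directions together. Transcripts of alveolar type 2 cells, the surfactant-making epithelium, were present in every library at a summed 3665 to 21256 CPM in WT and 3517 to 15444 CPM in KO over 6 markers, with no marker called and none at 0. Leukocyte markers summed to 5.69 to 20.6 CPM in WT and 8.54 to 30.4 CPM in KO, and mesenchymal markers to 127 to 870 CPM and 192 to 790 CPM. No listed marker of any cell type was at 0 in all 8 libraries.

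Transcripts for 3 steps of the pathway were higher in the KO libraries: Mthfd2, Phgdh and Shmt2 were each called, by a fitted 15.8-fold, 13.0-fold and 3.03-fold. The cell type that carried them was not resolved. These were 3 of the 10 genes, where 2.25% of all genes tested were called higher in KO. None of the 10 was called lower by edgeR, DESeq2 or limma, where 1.39% of all genes tested were called lower by edgeR. Nor was any of the 10 lower at an unadjusted edgeR p under 0.05. The fitted log2 fold change was above 0 for all 10 genes, with a median of 2.05, while 51.0% of all genes tested were above 0, with a median of 0.01. In 5 of the 10 (Phgdh, Psat1, Shmt2, Mthfd2 and Mthfd1l) every KO library lay above every WT library, which was so for 6.94% of all genes tested. The other 7, both cytosolic folate genes among them, missed the threshold. In sorted bulk RNA, a change in the number of cells of a type and a change in RNA per cell cannot be told apart.

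**Figure D1:**
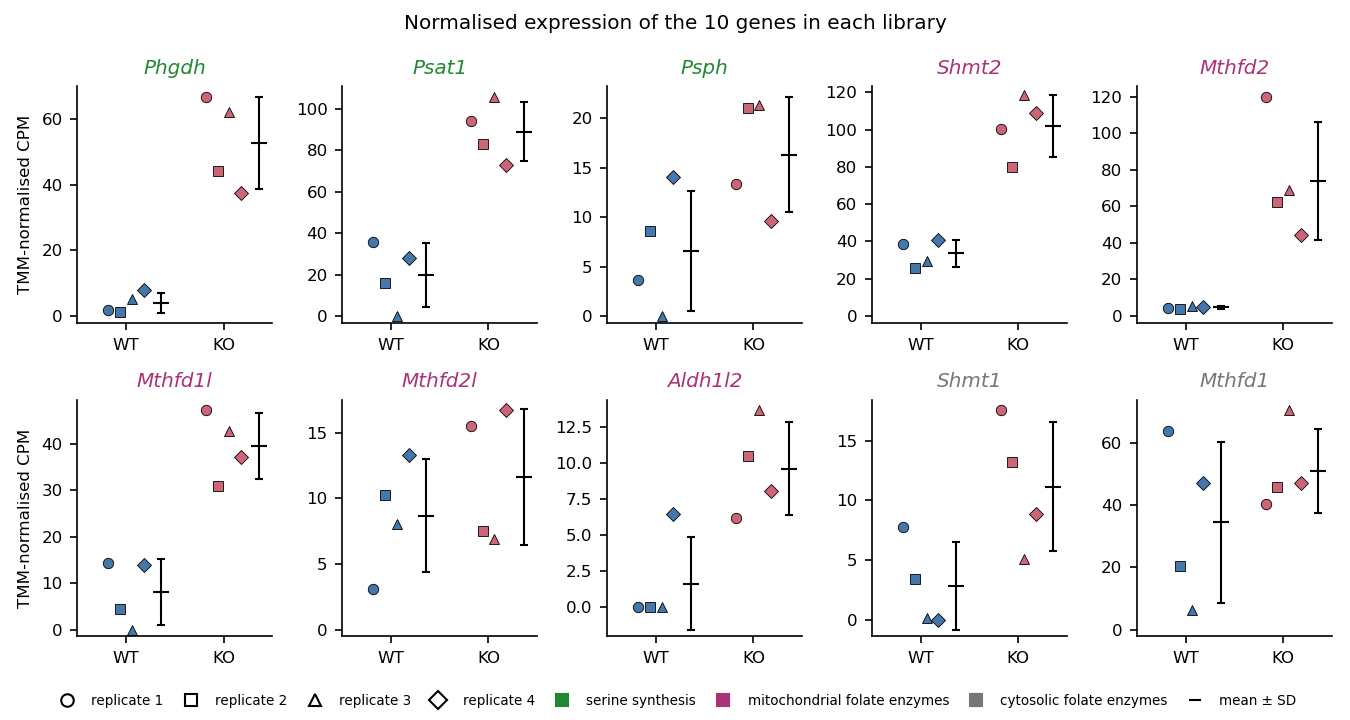
TMM-normalised CPM of the 10 genes in each WT and KO library, on linear axes that differ between genes. Marker shapes give the replicate number and the bars to the right of each group give the mean and SD of 4 libraries. The KO libraries lie wholly above the WT libraries for Phgdh, Psat1, Shmt2, Mthfd2 and Mthfd1l, and overlap them for the other genes.

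Phgdh, which encodes the first enzyme of serine synthesis, was low in WT and well expressed in every KO library. Its level was 1.84, 1.29, 5.23 and 7.90 CPM in WT and 66.8, 44.1, 62.2 and 37.6 CPM in KO, here and for the other genes in the order of replicates 1 to 4. The lowest KO library held more than the highest WT library by a wide margin, and in raw counts the WT libraries had 15 to 96 and the KO libraries 519 to 786. The WT mean was 4.07 ± 3.09 CPM (SD, n = 4) and the KO mean 52.7 ± 14.0 CPM (SD, n = 4), a log2 fold change of 3.70 with SE 0.51 and an edgeR adjusted p of 0.000873. Phgdh lies on chromosome 3 (GRCm38, 98313170 to 98339990, minus strand). The annotation holds 17 processed or unreviewed copies of it elsewhere in the genome that match its transcripts at 90.6% to 98.7% identity over at least 500 bases. The 7 of these in the count table held 1 count in all, and reads that could not be placed uniquely may have been lost from Phgdh in both groups.

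Psat1, the aminotransferase of the second step, was higher in every KO library than in any WT library but was not called. It stood at 35.5, 15.8, 0.149 and 28.2 CPM in WT and at 94.1, 83.0, 106 and 72.7 CPM in KO. The 0.149 CPM of WT replicate 3 was 1 read, against 183 to 425 reads in the other WT libraries. The fitted log2 fold change was 2.14 (SE 0.92, edgeR adjusted p = 0.335). With WT replicate 3 left out it was 1.75 with adjusted p = 0.00601, with KO replicate 1 left out as well it was 1.72 with adjusted p = 0.0143, and edgeR's newer dispersion option gave adjusted p = 0.000591 on all 8 libraries.

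Psph, the phosphatase of the last step, overlapped between the groups. Its level was 3.68, 8.63, 0 and 14.0 CPM in WT and 13.3, 21.1, 21.3 and 9.56 CPM in KO. KO replicates 1 and 4 fell within the WT range, and WT replicate 3 again had no read. The log2 fold change was 1.30 (SE 0.91, edgeR adjusted p = 0.608), and no alternative that returned an adjusted p called it. The exons of Psph share 452 bases with Cct6a on the opposite strand, and without a stated strand setting reads from the shared part cannot be assigned to either gene.

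Shmt2 encodes the mitochondrial serine hydroxymethyltransferase that begins the mitochondrial branch. It had the highest mean level per kilobase of the 10 genes in both groups, and the smallest standard error of the 10. It measured 38.4, 25.7, 29.3 and 40.8 CPM in WT and 100.2, 79.8, 119 and 109 CPM in KO. WT replicate 3 lay inside the WT range for this gene, and the lowest KO library was well above the highest WT library. The mean rose from 33.6 ± 7.21 to 102 ± 16.6 CPM (SD, n = 4 each), a log2 fold change of 1.60 with SE 0.23 and an edgeR adjusted p of 0.000906. Shmt2 lies on chromosome 10 (GRCm38, 127517123 to 127522444, minus strand), and its exons share 32 bases with Ndufa4l2 on the opposite strand.

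Mthfd2 encodes the bifunctional mitochondrial dehydrogenase and cyclohydrolase that oxidises the one-carbon unit, an enzyme best known from embryos and tumours and low in most adult tissues. It held 4.27, 4.05, 5.53 and 4.94 CPM in the WT libraries and 120, 62.2, 69.0 and 44.2 CPM in the KO libraries. WT libraries were alike, with 37 to 60 reads and a coefficient of variation of 14.3%, while KO libraries ranged widely, with 611 to 1281 reads and a coefficient of variation of 44.0%. The WT mean was 4.70 ± 0.672 CPM (SD, n = 4) and the KO mean 73.9 ± 32.5 CPM (SD, n = 4), a log2 fold change of 3.98 (SE 0.35, edgeR adjusted p = 3.16e-05). In the edgeR fit Mthfd2 had the smallest p of all 12689 genes tested, with Phgdh at rank 36 and Shmt2 at rank 39. The order differed in limma voom, with adjusted p of 0.0112 for Mthfd2, 0.0130 for Phgdh and 0.00054 for Shmt2. By fitted fold change these 3 genes ranked 5, 6 and 40 among the 285 genes called higher. Mthfd2 lies on chromosome 6 (GRCm38, 83305691 to 83325908, minus strand).

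Mthfd1l, the mitochondrial synthetase that releases formate at the end of the branch, was measured at 14.3, 4.31, 0 and 13.9 CPM in WT and at 47.1, 30.9, 42.7 and 37.1 CPM in KO. The groups did not overlap, but the WT libraries differed among themselves, and WT replicate 3 had no read. The log2 fold change was 2.26 (SE 0.90, edgeR adjusted p = 0.262). The gene was called with WT replicate 3 left out (log2 fold change 1.86, adjusted p = 0.0268) and with the newer dispersion option (adjusted p = 0.00254), and was not called once KO replicate 1 was left out too (adjusted p = 0.0568).

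Mthfd2l, the close relative of Mthfd2 that is expressed in adult tissues, overlapped between the groups. It stood at 3.09, 10.3, 8.07 and 13.3 CPM in WT and 15.5, 7.52, 6.88 and 16.7 CPM in KO. The KO libraries fell into a higher and a lower pair, and the lower pair sat within the WT range. Its log2 fold change was 0.42 with SE 0.66 (edgeR adjusted p = 0.882), an error larger than the difference.

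Aldh1l2, the mitochondrial dehydrogenase that burns the formyl unit to carbon dioxide and makes NADPH, had no read in WT replicates 1, 2 and 3 and 78 reads in WT replicate 4, which is 6.42 CPM. KO replicates 1 to 4 had 66, 134, 172 and 111 reads, or 6.18, 10.5, 13.6 and 8.04 CPM. The transcript was therefore seen in every KO library and in 1 WT library, whose level exceeded that of KO replicate 1. The log2 fold change of 2.56 had an SE of 1.62 (edgeR adjusted p = 0.541). With WT replicate 4 left out, WT held no read at all and the adjusted p was 0.0216. Exons of Aldh1l2 share 1056 bases with D10Wsu102e on the other strand, and reads there cannot be told apart between them.

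Shmt1, the cytosolic serine hydroxymethyltransferase, was scarce. Its level was 7.78, 3.45, 0.149 and 0 CPM in WT and 17.5, 13.2, 5.06 and 8.83 CPM in KO. KO replicate 3 fell below WT replicate 1, and WT replicates 3 and 4 had 1 read and none. The log2 fold change was 1.96 with SE 1.25 (edgeR adjusted p = 0.547). Exons of Shmt1 share 184 bases with Smcr8 on the opposite strand, and reads there cannot be told apart between them.

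Mthfd1, the cytosolic trifunctional enzyme that carries the synthetase, cyclohydrolase and dehydrogenase activities in one protein, was well expressed in both groups. It measured 64.0, 20.6, 6.43 and 47.2 CPM in WT and 40.5, 45.9, 70.9 and 47.4 CPM in KO. The WT range enclosed 3 of the 4 KO libraries, and WT replicate 3 was again the lowest. The log2 fold change was 0.56 (SE 0.55, edgeR adjusted p = 0.774).

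**Figure D2:**
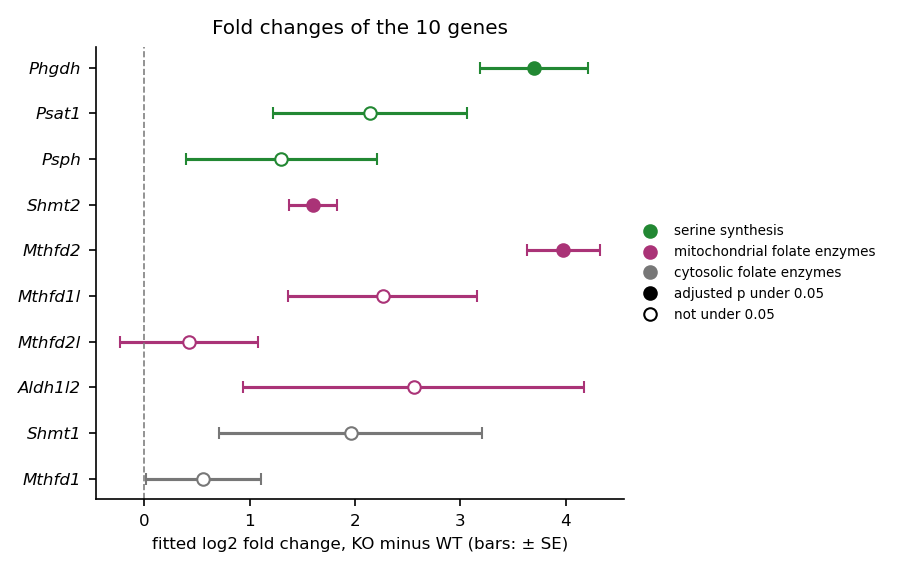
Fitted log2 fold change of KO against WT for the 10 genes, with bars of 1 SE, coloured by serine synthesis, mitochondrial and cytosolic folate enzymes. Filled points had an edgeR adjusted p under 0.05. Mthfd2 at 3.98, Phgdh at 3.70 and Shmt2 at 1.60 are the filled points, and the widest error bar belongs to Aldh1l2.

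The 3 called genes kept their calls and direction in all 20 alternative fits. The adjusted p was at most 0.0143 for Phgdh, 0.0106 for Shmt2 and 0.0112 for Mthfd2, and their log2 fold changes ranged over 3.40 to 4.29, 1.49 to 1.71 and 3.64 to 4.54. With WT replicate 3 left out, 5 of the 10 genes were called higher, where 1.66% of all genes tested were. With KO replicate 1 left out too, the count was 4, against 1.59% of all genes. The newer dispersion option called 5, against 3.55% of all genes. The number of genes with all KO libraries above all WT libraries was 5 without WT replicate 3 (8.98% of all genes), 6 without KO replicate 1 (9.92%) and 6 without both (12.7%), the sixth being Aldh1l2.

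Levels of other cell markers were set beside these calls. The 7 cycling markers summed to 371 to 592 CPM in WT and 485 to 1256 CPM in KO, with 1 of the 7, Mcm6, called higher and none at 0. At an unadjusted edgeR p under 0.05, 4 of the 7 were higher, and DESeq2 called 2, limma voom 2 and the newer dispersion option 3. At least 1801 of the 12689 genes tested passed that unadjusted threshold, both directions together. Of all genes tested, edgeR called 285 higher, DESeq2 417, limma voom 338 and the newer option 450. For use as covariates, marker levels were summed as log2(CPM + 1), unlike the CPM sums above. With the cycling level as a covariate, log2 fold changes were 3.99 for Phgdh, 1.64 for Shmt2 and 4.54 for Mthfd2, and all 3 stayed called. With the alveolar type 2 level as a covariate they were 3.83, 1.70 and 3.89, and all 3 stayed called.

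**Figure D3:**
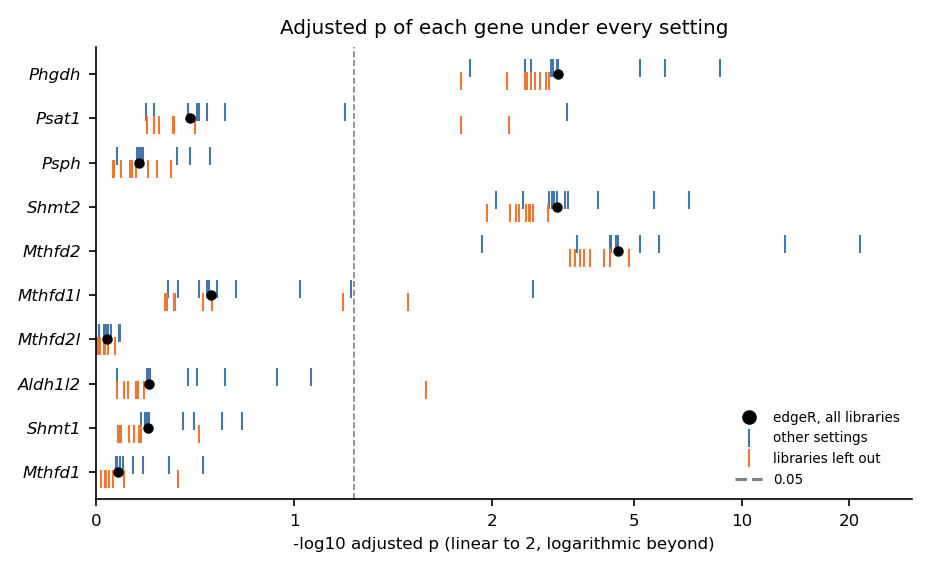
Adjusted p of each of the 10 genes, as -log10 on an axis that is linear to 2 and logarithmic beyond, for the edgeR fit on all libraries (black), for the other settings (blue) and with libraries left out (orange). The dashed line is 0.05. Phgdh, Shmt2 and Mthfd2 lie to its right throughout, Psat1 has 3 marks to its right, Mthfd1l has 2 and Aldh1l2 has 1.

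The promoters of the 3 called genes are shown, as the ones with the clearest change. Each line is 150 bases from the RefSeq promoter table (GRCm38.p6), read in the direction of transcription, that end at the RefSeq start for Shmt2 and, to leave out annotated exons, 2 bases before it for Mthfd2 and 21 bases before it for Phgdh. Capitals mark CCAAT, the box bound by the NF-Y factor, or its reverse complement ATTGG. The stretches are chr3:98339991-98340140 for Phgdh, chr6:83317607-83317756 for Mthfd2 and chr10:127522445-127522594 for Shmt2, all on the minus strand. A longer annotated transcript of Mthfd2 begins farther upstream, and the stretch shown is intronic for it.
Phgdh: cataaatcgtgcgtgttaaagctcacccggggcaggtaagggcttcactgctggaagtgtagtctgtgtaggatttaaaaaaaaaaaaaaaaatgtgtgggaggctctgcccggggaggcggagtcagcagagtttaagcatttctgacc
Mthfd2: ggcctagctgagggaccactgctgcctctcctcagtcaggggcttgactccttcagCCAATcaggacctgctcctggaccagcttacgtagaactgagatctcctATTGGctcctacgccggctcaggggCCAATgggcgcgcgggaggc
Shmt2: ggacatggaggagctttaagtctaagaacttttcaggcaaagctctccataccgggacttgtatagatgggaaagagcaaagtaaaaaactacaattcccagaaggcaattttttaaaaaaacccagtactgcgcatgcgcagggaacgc
Mthfd2 carries 3 such boxes within this stretch, while the Phgdh and Shmt2 stretches hold no whole one. Phgdh has 2 boxes, which begin 193 and 23 bases before the RefSeq start. The first lies upstream of its stretch, and the other runs over the stretch's end, whose last 2 bases are its first.

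Promoter windows from 250 bases before to 50 after the RefSeq start were found for 9 of the 10 genes (10 windows, as Psat1 has 2), and both strands were searched. TGATGNAA, the core of the response element bound by ATF4 with C/EBP proteins, was in 0 of the 9 and in 3.97% of 32851 mouse promoters. CACGTG, an E-box, was also in 0 of the 9, and in 7.15% of all promoters. The following were chosen after those results were seen. CCAAT was in 6 of the 9 (Phgdh, Psat1, Psph, Mthfd2, Shmt1 and Mthfd1) and in 37.4% of all promoters, and 3.37% of all promoters held at least 3. GGGCGG, a GC box, was in 6 of the 9 and in 35.7% of all promoters. TGATG, which forms part of TGATGNAA, was in 3 of the 9 and in 39.3% of all promoters. A match is only a run of letters, and the absence of one in these windows says nothing about a factor.

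Levels can be compared between genes once divided by exon length. In WT the highest level per kilobase was that of Shmt2, at 10.8 ± 2.32 CPM per kilobase (SD, n = 4), followed by Mthfd1 at 7.78 ± 5.83 and Psat1 at 4.68 ± 3.64, neighbours whose SDs overlap. Mthfd1l, Phgdh, Psph, Mthfd2 and Mthfd2l came next at means of 1.83, 1.64, 1.52, 1.35 and 1.31 CPM per kilobase, neighbours that do not differ beyond their SDs. Shmt1 and Aldh1l2 were the lowest at 0.733 and 0.214. In KO, Shmt2 again had the highest mean, at 32.8 ± 5.33 CPM per kilobase. Mthfd2 (21.2 ± 9.31), Phgdh (21.2 ± 5.65) and Psat1 (20.9 ± 3.34) came next and were not separated by their SDs. The SD of Mthfd2 also overlapped that of Shmt2, and in KO replicate 1 Mthfd2 was the higher (34.4 against 32.2). Mthfd1 at 11.5 ± 3.04 and Mthfd1l at 8.90 ± 1.58 followed, not separated by their SDs, and Psph, Shmt1, Mthfd2l and Aldh1l2 were at 3.77, 2.87, 1.76 and 1.28.

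Summed by compartment, the mitochondrial folate genes stood at 17.3, 11.9, 12.2 and 20.5 CPM per kilobase in WT and 80.4, 53.0, 70.4 and 59.7 in KO. The 3 serine synthesis genes summed to 9.95, 6.22, 2.14 and 13.0 in WT and 52.1, 42.1, 54.8 and 34.4 in KO. The cytosolic folate genes summed to 16.4, 5.53, 1.49 and 10.6 in WT and 13.6, 13.7, 17.3 and 12.9 in KO. WT and KO sums were separate for serine synthesis and for the mitochondrial enzymes and overlapped for the cytosolic enzymes. These sums are given as values, with no test.

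**Figure D4:**
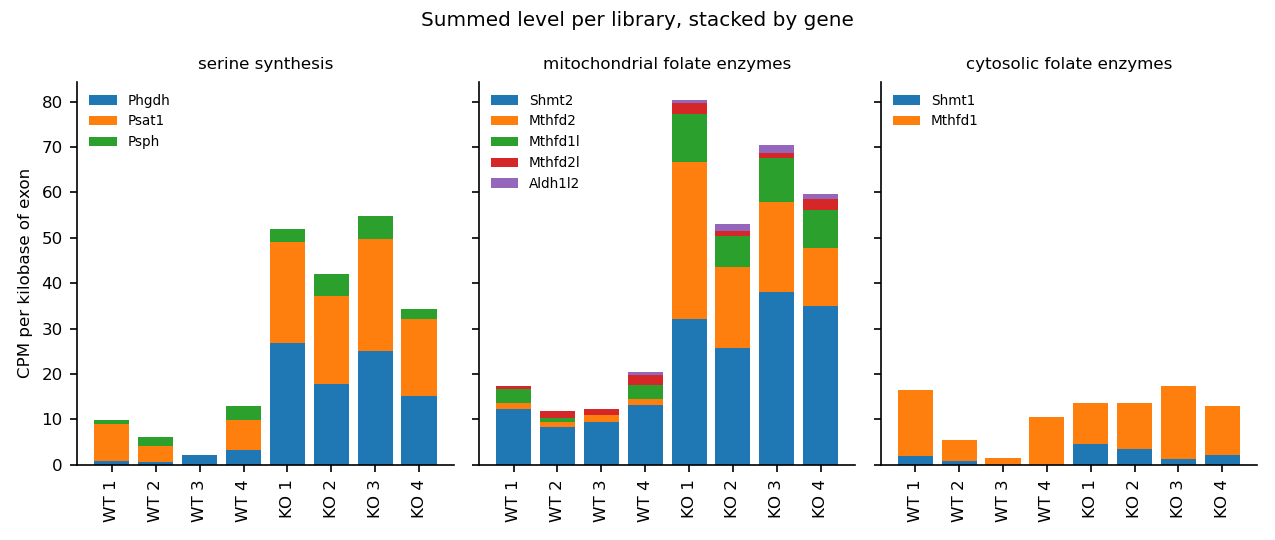
CPM per kilobase of exon in each library, stacked by gene, for serine synthesis (left), mitochondrial folate (middle) and cytosolic folate enzymes (right) on a shared linear axis from 0. The mitochondrial sum is 53.0 to 80.4 in KO and 11.9 to 20.5 in WT, and the cytosolic sum overlaps between groups.

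The share of Mthfd2 within the mitochondrial branch was higher in every KO library than in any WT library. Mthfd2 made up 7.09%, 9.73%, 13.0% and 6.89% of the mitochondrial folate level per kilobase in WT and 42.8%, 33.7%, 28.1% and 21.3% in KO. Against its adult-type relative, Mthfd2 was 41.4% to 72.4% of the Mthfd2 and Mthfd2l sum in WT and 83.4% to 95.0% in KO, with no overlap in either measure. Mitochondrial genes were 51.3%, 68.4%, 89.2% and 65.9% of all folate transcripts among these genes in WT and 79.4% to 85.5% in KO. The 89.2% of WT replicate 3 lay above every KO library, in a library where Mthfd1 and Shmt1 had 43 reads and 1.

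The mitochondrial and cytosolic forms were then compared within each library as a ratio of counts per kilobase, from which library size cancels. Mthfd2 relative to Mthfd1 was 0.0857, 0.253, 1.10 and 0.134 in WT and 3.77, 1.73, 1.24 and 1.19 in KO. The KO libraries were all higher, WT replicate 3 being just below the lowest of them, and the WT mean of the log2 ratio was -2.07 ± 1.60 and the KO mean 0.82 ± 0.77 (SD, n = 4 each), a difference of 2.89 (exact two-sided permutation p = 0.02857, and 0.04286 after Benjamini-Hochberg adjustment over the 3 ratios). Mthfd1l relative to Mthfd1 was 0.224, 0.211, 0.0115 and 0.296 in WT and 1.17, 0.675, 0.604 and 0.784 in KO. Again all 4 KO libraries were higher, with a WT mean of the log2 ratio of -3.15 ± 2.20 and a KO mean of -0.36 ± 0.41 (SD, n = 4 each), a difference of 2.79 (exact two-sided permutation p = 0.02857, adjusted 0.04286). The low value of WT replicate 3 comes from Mthfd1l at 0 reads with 0.5 read added to both genes, and without that library the difference was 1.70 (exact p = 0.02857). For Mthfd2 to Mthfd1, the difference without WT replicate 3 was 3.625 (exact p = 0.02857). For both ratios the exact p was 0.05714 with any 1 KO library left out or between group medians, and 0.125 with the replicate number as a block, the smallest that test can give. Both ratios share Mthfd1 as their denominator. The genes were chosen with earlier results of these data known, and Mthfd2 and Mthfd1l alone were already higher in every KO library. The p-values of these ratios are therefore not independent evidence.

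Shmt2 relative to Shmt1 gave no such separation. The log2 ratio was 2.62, 3.20, 7.35 and 10.28 in WT and 2.83, 2.91, 4.86 and 3.94 in KO. The WT values of 7.35 and 10.28 are from the libraries with 1 and 0 Shmt1 reads, and the other WT libraries lie among or next to the KO libraries. The difference of -2.23 did not exceed the spread (exact two-sided permutation p = 0.3429, also after adjustment over the 3 ratios). It ranged from -3.308 without WT replicate 1 to -0.7554 without WT replicate 4, and was -0.9116 with 5 reads added, with exact p-values of 0.1143 to 0.6857 over all its alternatives. Shmt2 was 86.0% to 100% of the summed Shmt level in WT and 87.7% to 96.7% in KO.

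**Figure D5:**
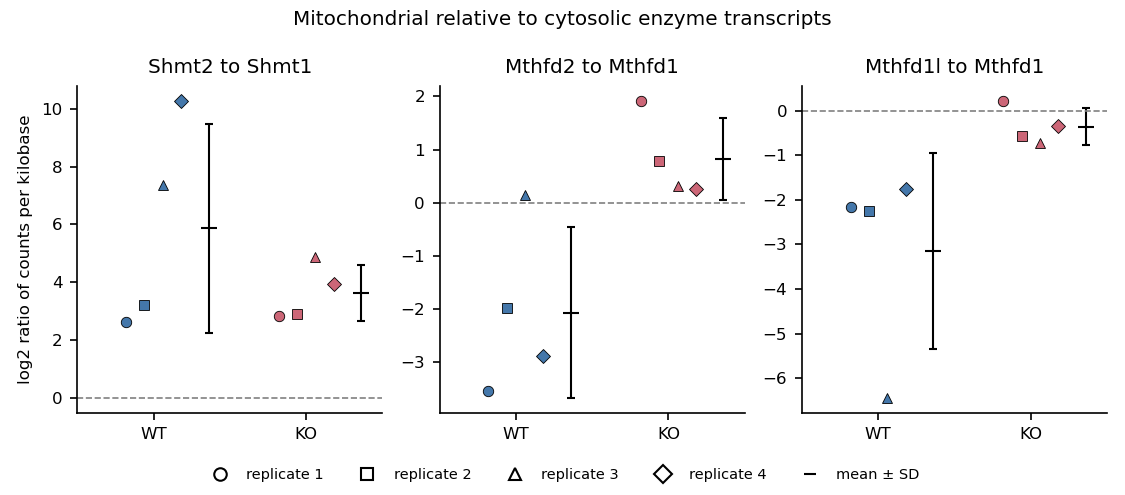
Log2 ratio of counts per kilobase of a mitochondrial gene to its cytosolic counterpart in each library, with 0.5 read added to both counts. Bars give mean and SD of 4 libraries and the dashed line marks equal levels. Mthfd2 to Mthfd1 and Mthfd1l to Mthfd1 are higher in all 4 KO libraries than in any WT library, and Shmt2 to Shmt1 overlaps.

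Genes that use the folate units gave 1 edgeR call among 6 tested, while DESeq2 called 2, limma voom 0 and the newer dispersion option 2. All these calls were higher in KO. Of all 12689 genes tested, edgeR called 285 higher, DESeq2 417, limma voom 338 and the newer option 450. Tyms, thymidylate synthase, stood at 19.4, 14.0, 10.9 and 17.5 CPM in WT and 15.5, 46.9, 43.0 and 79.7 CPM in KO. KO replicate 1 lay within the WT range, and the other 3 KO libraries were above it. The log2 fold change was 1.58 (SE 0.41, edgeR adjusted p = 0.0418), and the call was lost in 10 of 20 alternatives, including the cycling level as a covariate, where the log2 fold change was 0.41 and the adjusted p 0.835. It was also lost in 7 of the 8 fits that left out 1 library (adjusted p 0.0613 to 0.208), all except that without KO replicate 1. The sums of cycling markers, given above, overlapped between the groups and reached higher in KO. Atic, of purine synthesis, was higher in all 4 KO libraries (41.2 ± 8.07 against 19.1 ± 6.75 CPM, SD, n = 4 each, edgeR adjusted p = 0.0763). It was called in 3 of 20 alternatives: DESeq2 (adjusted p = 0.0433), the newer dispersion option (0.04635) and the alveolar type 2 covariate (0.0432). Gart, also of purine synthesis, had a log2 fold change of 0.39 (edgeR adjusted p = 0.554).

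Folate uptake and interconversion gave no call among 9 genes tested, with 0 genes at an unadjusted edgeR p under 0.05 and none called by DESeq2 or limma voom. Ggh, the hydrolase that trims the glutamate tail of folates, had a WT mean of 44.8 ± 8.27 CPM and a KO mean of 51.5 ± 11.6 CPM (SD, n = 4 each), with a log2 fold change of 0.20 (edgeR adjusted p = 0.842). Aldh1l1, the cytosolic counterpart of Aldh1l2, had no read in 1 WT and 2 KO libraries. Its log2 fold change was -1.73 with SE 1.90, and the sign turned in 1 alternative. DESeq2 returned no adjusted p for Aldh1l1. The median log2 fold change of the 9 was 0.20.

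Of 5 genes of glycine cleavage and mitochondrial glycine metabolism, edgeR, DESeq2 and limma voom called none and 1 (Gcsh, the lipoyl carrier protein of the cleavage system) had an unadjusted edgeR p under 0.05. Gcsh stood at 17.4, 21.7, 19.7 and 22.1 CPM in WT and 19.4, 36.2, 36.2 and 39.2 CPM in KO. Its KO replicate 1 sat inside the WT range (edgeR adjusted p = 0.304). With an unadjusted edgeR p of 0.0433, Gcsh ranked only 1801 by p among the 12689 genes tested. At least that many genes, in both directions together, thus passed the unadjusted threshold used for every list here. Among 5 tested genes that consume serine for lipids or D-serine (Sptlc2, Srr and Ptdss2 among them), edgeR, DESeq2 and limma voom called none, 0 had an unadjusted edgeR p under 0.05, and the median log2 fold change was -0.15.

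Transport of serine and glycine had no edgeR call among 8 genes, 3 with an unadjusted edgeR p under 0.05 and a median log2 fold change of 0.73. That unadjusted threshold was passed by at least 1801 of the 12689 genes tested, both directions together. Slc1a4, a transporter of serine and other small neutral amino acids, was measured at 12.6, 13.5, 0 and 11.9 CPM in WT and at 58.4, 32.3, 52.6 and 33.0 CPM in KO. Every KO library was above every WT library, WT replicate 3 had no read, and the log2 fold change was 2.20 (SE 0.86, edgeR adjusted p = 0.255). DESeq2 and the newer dispersion option called it, limma voom did not, and without WT replicate 3 the adjusted p was 0.00945. Slc38a2, a sodium-coupled amino acid transporter, was also higher in all KO libraries (267 ± 19.8 against 208 ± 26.7 CPM, SD, n = 4 each, edgeR adjusted p = 0.206). Slc1a5 had a log2 fold change of 0.68 (adjusted p = 0.27).

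In the methionine cycle, edgeR, DESeq2 and limma voom called 0 of 6 genes tested, and 1 gene in each direction had an unadjusted edgeR p under 0.05. Ahcy, which clears the by-product of methylation, was at 3.35, 1.55, 10.6 and 3.95 CPM in WT and 13.2, 15.9, 17.6 and 21.2 CPM in KO, without overlap (edgeR adjusted p = 0.17). It was called in 3 of the 19 alternatives that returned an adjusted p, the lowest being 0.0326 with the newer dispersion option. DESeq2 returned none for Ahcy and so could not call it. Mat2b, a regulatory subunit of methionine adenosyltransferase, was lower in all KO libraries (50.8 ± 3.03 against 72.4 ± 8.1 CPM, SD, n = 4 each, edgeR adjusted p = 0.211).

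Transcripts of known regulators of the serine and folate genes were measured too. Of these 9, edgeR and DESeq2 called 0, limma voom 1 and the newer dispersion option 1, with 2 at an unadjusted edgeR p under 0.05. Of all 12689 genes tested, limma voom called 338 higher and the newer option 450. Atf4, the factor best known for inducing Phgdh, Psat1, Shmt2 and Mthfd2, is controlled largely at translation. Its mRNA was at 239, 348, 229 and 235 CPM in WT and 306, 293, 369 and 265 CPM in KO. WT replicate 2 lay within the KO range, and the log2 fold change was 0.23 (SE 0.16, edgeR adjusted p = 0.612). Atf5, a related factor of the mitochondrial stress response, was at 11.5, 17.2, 35.6 and 12.3 CPM in WT and 67.3, 49.2, 45.2 and 24.5 CPM in KO. WT replicate 3 exceeded KO replicate 4, and the log2 fold change was 1.29 (SE 0.40, edgeR adjusted p = 0.0922). Atf5 was called in 5 of 20 alternatives. These were limma voom (adjusted p = 0.0402), the newer dispersion option (0.0224) and no filter on low counts (0.0223). The others left out WT replicate 3, alone (0.0175) or with KO replicate 1 (0.0425). Trib3, a target of ATF4, had a log2 fold change of 1.15 (adjusted p = 0.258), Atf3 of 0.01 (adjusted p = 0.998) and Ddit3, which encodes the stress factor CHOP, of 0.24 (adjusted p = 0.938).

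The KO libraries did not carry these transcripts equally. KO replicate 1, with the least Uqcrq at 1.59 CPM, had the highest Phgdh, Mthfd2, Mthfd1l, Atf5 and Trib3 levels of the group. It also had the lowest Aldh1l2 and Mthfd1 of the group, and was below 2 other KO libraries for Shmt2 and Psph. KO replicate 1 is also the KO library that stood apart in missing genes, and with 4 KO libraries the order was not tested. Between-library spread relative to the mean was smaller in KO than in WT for all of the 10 genes except Mthfd2.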

How the data were processed

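The authors deposited 1 table of raw gene counts, not normalised, with a column for each of the 8 libraries. The submitters' processing notes name TopHat, HTSeq, edgeR, bcl2fastq and the build mm10. Versions, annotation release and strand setting were not given in the sources used here. Every value column matched a sample label, and 0.0792% to 0.101% of a library's counts fell on IDs with no symbol.

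Low genes were removed by filterByExpr (at least 10 counts in enough libraries and 15 in total) and libraries scaled by TMM. KO was tested against WT in edgeR 4.0.16 under R 4.3.3 by its quasi-likelihood test (robust, genotype only), with Benjamini-Hochberg adjustment over all 12689 genes at 0.05. The common biological coefficient of variation was 63.5%. SE was derived from the F statistic. Printed CPM are TMM-normalised, and levels per kilobase use exon lengths of the GENCODE annotation of GRCm38. Log2 ratios within a library were compared by exact permutation of the group means. The fit and the permutation test were run on simulated data. Counts simulated for the fit had a lower dispersion than these libraries and no outlying library. Those runs check the code and do not give error rates for these data. Reads carry no molecular identifiers, so the floor of 3 counts covers counting error only.

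The 10 genes and the gene lists were chosen with earlier results of these data known. Besides the 10, the genes named were those of each pathway list that were called or, up to 3 a list, had the smallest p, with Atf4, Atf3, Atf5, Ddit3, Trib3 and Uqcrq. Not all of these are described in the text, and 1 is not reported here. Cell markers are given as summed levels, and a single marker only where above 10 CPM.

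Alternatives were RLE or upper quartile factors, another filter on low counts or none, limma 3.58.1 with voom, DESeq2 1.42.0, edgeR's newer dispersion option, a replicate block, marker levels as covariates, removal of length and GC trends, and leaving out libraries. The last 3 promoter motifs, and the counts of genes without overlap after libraries were left out, were added after the data were seen.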

Additional observations from a re-analysis of the deposited data

Results flagged for a closer look

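In 10 of 84 groups of 4 libraries, 1 library stood far from the other 3 by Dixon's criterion for a single outlying value, and chance alone gives about 1 in 20. WT replicate 3 was the library in 4 of them: its total of 6407924 counts, its 0 CPM for Slc1a4, its 60.4 CPM for Mat2b and its log2 ratio of Mthfd1l to Mthfd1 of -6.441. KO replicate 1 was the library in 3 of them, with 19.39 CPM of Gcsh, 24.91 CPM of Ptdss2 (both low) and 58.44 CPM of Trib3 (high). WT replicate 4 was the only WT library with Aldh1l2 reads, at 6.421 CPM, and had the lowest Gart of WT, at 28.65 CPM. WT replicate 2 had the highest Atf4 of WT, at 348.3 CPM.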

How the results depend on the processing

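Phgdh, Shmt2 and Mthfd2 kept their calls under all 20 alternatives. The 461 genes called overall became 788 with DESeq2, 747 with edgeR's newer dispersion option and 270 to 446 with a library left out (270 without KO replicate 3), and the number of the 10 genes called went from 3 to 5 with the newer option and ranged over 3 to 5 with a library left out. The cause was not tested. DESeq2 gave no adjusted p for Psph, Mthfd2l, Aldh1l2 and Shmt1, nor, among the other genes described, for Aldh1l1, Ahcy and Ddit3. A gene without an adjusted p counts as not called in the lists above. The log2 difference in Mthfd2 to Mthfd1 was 2.398 to 3.625 with a library left out, 2.99 between medians and 2.889 with the replicate number as a block. That in Mthfd1l to Mthfd1 was 1.696 to 3.258, 1.741 between medians and 2.793 with the block. Same-numbered WT and KO libraries did not deviate together (correlations -0.122 to 0.00627). The labels state no pairing, and these correlations give no sign of one but cannot exclude it. The replicate block called 338 genes, Phgdh, Shmt2 and Mthfd2 among them. Calls were 61.8% higher in KO, and 55.1% with RLE factors.

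Genes at or near 0 reads in some WT libraries (Psat1, Psph, Mthfd1l, Aldh1l2 and Shmt1) limit what these 4 libraries can show.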
